A study of Mus musculus with 12 samples.

Results

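The set described here comprised 100 genes that name subunits of the oxidative phosphorylation machinery, out of 54446 genes in the deposited table. They were chosen by gene name alone: Nduf genes of the A, B, C, S and V series, Sdha to Sdhd, genes starting with Uqcr or Atp5, Cox subunit genes of the 4 to 8 series that carry the letter A, B or C, and the protein-coding genes of mitochondrial DNA, without names that end in a pseudogene suffix. Of these, 87 were nuclear genes and 13 were encoded in mitochondrial DNA. The nuclear genes held 38 subunits of complex I, 4 of complex II, 8 of complex III, 19 of complex IV and 18 of complex V. The mitochondrial genes held 7 subunits of complex I, 1 of complex III, 3 of complex IV and 2 of complex V, and none of complex II. The name rule leaves out some subunits, such as Cox4i1, Cyc1 and Ndufab1, whose values are given separately. It also takes in 4 genes that GENCODE M21 annotates as processed pseudogenes, Cox6c2, Ndufa11b, Ndufb4c and Ndufs6b.

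The study profiled 12 poly(A) libraries, 3 in each of 4 groups, made from the mouse embryonic stem cell line E14 and from cells differentiated from it. SOX17+ cells, SOX17+/T+ cells and T+ cells were sorted by flow cytometry on reporters of these transcription factors, and the fourth group was the undifferentiated embryonic stem cells (mESC). SOX17 marks definitive endoderm, the precursor of gut, liver and pancreas, and T (Brachyury) marks the primitive streak and nascent mesoderm. All groups share the E14 background. The differentiation protocol, its time points and the clone behind the reporters are not given in the labels, and the stem cell cultures were kept on irradiated mouse embryonic fibroblasts in serum with LIF. The labels do not say that replicates came from separate cultures, so the p-values below measure the spread between these libraries, which may be technical. Values are TPM, the length-scaled share of each gene in its library. Counts were not used here, so the depth behind a value is unknown.

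Oxidative phosphorylation takes place in the inner mitochondrial membrane. Complexes I and II pass electrons from NADH and succinate to ubiquinone, complex III passes them to cytochrome c and complex IV to oxygen. Complexes I, III and IV pump protons, and complex V, the ATP synthase, lets the protons flow back to make ATP. All of these except complex II are built from proteins of both genomes. Mitochondrial DNA is transcribed as long transcripts of each strand, from which tRNAs are cut out to leave the mRNAs, whereas each nuclear gene has a promoter of its own and its protein is imported. Embryonic stem cells are known to use glycolysis as well as oxidative phosphorylation.

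The compact layout of the mitochondrial genes can be read from their sequences, which are shown because neighbouring genes share letters. On the GRCm38 mitochondrial chromosome, mt-Atp8 (chrM:7766-7969) and mt-Atp6 (chrM:7927-8607), both on the plus strand, share 43 bases, and mt-Nd4l (chrM:9877-10173) and mt-Nd4 (chrM:10167-11544) share 7 bases. In the shared stretches, taken from the GENCODE M21 transcripts, the start codon of the second gene stands in capitals inside the end of the first.
mt-Atp8 and mt-Atp6, chrM:7927-7969, plus strand: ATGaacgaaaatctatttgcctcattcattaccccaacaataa
mt-Nd4l and mt-Nd4, chrM:10167-10173, plus strand: ATGctaa
mt-Nd6 (chrM:13552-14070) is the only one of the 13 genes on the minus strand, and it shares 14 bases with mt-Nd5 on the opposite strand. The library kit keeps strand. No source used here says whether the counting used it. The limit is wider than this pair, since 28 members share exon bases with another gene on the opposite strand. Examples are Atp5j with Gabpa (397 bases), Atp5f1 with Wdr77 (337 bases) and Ndufb5 with Mrpl47 (616 bases). What such sharing adds to their values was not tested.

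For the nuclear genes the promoters of 4 members are shown, picked for their opposite directions of change. The same word is present in 3 of the windows. Atp5g1 and Atp5g2 encode the same mature subunit c of the ATP synthase, Uqcrc1 a core subunit of complex III and Ndufa11 an accessory subunit of complex I. Atp5g2 rose against mESC in all 3 sorted populations, and Atp5g1, Uqcrc1 and Ndufa11 fell in all 3. The windows run from 250 bases before to 50 bases after a RefSeq gene start (GRCm38.p6), written 5′ to 3′ on the strand of the gene. Capitals mark matches to GCGCNTGCGC, a relaxed form of the word bound by nuclear respiratory factor 1 (NRF1), an activator of respiratory genes.
Atp5g2, chr15:102670998-102671297, minus strand: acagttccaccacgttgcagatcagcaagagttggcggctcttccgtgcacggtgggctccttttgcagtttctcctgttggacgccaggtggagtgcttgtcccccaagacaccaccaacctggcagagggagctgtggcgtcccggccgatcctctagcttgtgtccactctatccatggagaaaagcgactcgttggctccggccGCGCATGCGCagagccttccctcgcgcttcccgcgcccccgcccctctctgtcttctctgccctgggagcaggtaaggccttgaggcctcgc
Atp5g1, chr11:96075582-96075881, minus strand: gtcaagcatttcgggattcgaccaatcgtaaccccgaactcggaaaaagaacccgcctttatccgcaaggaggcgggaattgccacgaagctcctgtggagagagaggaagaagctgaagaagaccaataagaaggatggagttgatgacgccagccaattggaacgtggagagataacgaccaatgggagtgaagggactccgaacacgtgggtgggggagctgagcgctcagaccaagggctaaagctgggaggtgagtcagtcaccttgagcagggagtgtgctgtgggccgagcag
Uqcrc1, chr9:108936398-108936697, plus strand: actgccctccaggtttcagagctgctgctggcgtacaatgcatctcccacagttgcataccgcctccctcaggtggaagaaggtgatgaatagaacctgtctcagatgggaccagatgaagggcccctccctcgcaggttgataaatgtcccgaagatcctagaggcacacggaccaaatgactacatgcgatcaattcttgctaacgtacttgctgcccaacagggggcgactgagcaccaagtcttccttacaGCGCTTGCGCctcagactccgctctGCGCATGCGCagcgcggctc
Ndufa11, chr17:56717512-56717811, plus strand: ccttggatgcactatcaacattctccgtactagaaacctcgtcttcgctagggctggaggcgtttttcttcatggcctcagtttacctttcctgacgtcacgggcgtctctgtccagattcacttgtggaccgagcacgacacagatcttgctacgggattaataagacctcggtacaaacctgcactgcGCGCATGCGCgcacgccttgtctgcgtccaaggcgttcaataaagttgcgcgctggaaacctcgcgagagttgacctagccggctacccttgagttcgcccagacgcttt
A RefSeq window was found for 66 of the 87 nuclear genes, 71 windows in all. The strict word GCGCATGCGC, which reads the same on both strands, was present in 7.04% of these windows, in Atp5g2, Atp5k, Cox6a1, Ndufa11 and Uqcrc1, against 0.971% of all 32851 windows of the genome. The relaxed word GCGCNTGCGC, searched on both strands and containing every strict match, was present in 25.4% of the windows against 4.60% of all. The ETS word CCGGAAGT was present in 7.04% against 3.89%, the YY1 word AAGATGGCG in 9.86% against 1.40% and the oestrogen-related receptor word TCAAGGTCA in 2.82% against 0.423%, each searched on both strands. Of the 5 tested members with the strict word, 1 rose and 4 fell against mESC in each population as deposited. Of the 17 with the relaxed word, 5 rose and 12 fell in SOX17+, 4 and 13 in SOX17+/T+, and 4 and 10 in T+ cells. Over all tested genes, 34.5% to 35.4% were called higher and 49.5% to 50.3% lower. A match is a description of the letters in the window and not a measured binding site.

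Markers of the labelled cell types were present in the sorted groups. The summed TPM of 6 definitive endoderm markers was 398.4 to 449.7 in SOX17+, 312.5 to 354.4 in SOX17+/T+ and 141.1 to 173.4 in T+ libraries, against 6.67 to 9.11 in mESC libraries. That of 6 primitive streak markers was 33.2 to 45.9 in SOX17+, with 2 of the 6 under 1 TPM, 140.4 to 190.3 in SOX17+/T+ and 349.9 to 426.4 in T+ libraries, against 5.95 to 6.13 in mESC libraries. These sums include Sox17 and T, on whose reporters the cells were sorted. Sox17 alone was at 243.5, 211.3 and 234.9 TPM in SOX17+ libraries. Gata6 and Foxa2 were also higher in SOX17+ than in T+ libraries. Cxcr4 (34.8, 34.2 and 42.6 against 64.5, 61.2 and 69.5 TPM) and Gsc were lower, and Cer1 overlapped. Of the streak markers, Evx1 overlapped between SOX17+ and T+ libraries. Pluripotency markers summed to 14.2 to 17.2 TPM in SOX17+, 39.2 to 44.4 TPM in SOX17+/T+ and 94.9 to 126.0 TPM in T+ libraries, against 3040.0 to 3101 TPM in mESC libraries. Fibroblast markers, 12 genes that the feeder layer expresses, summed to 74.3 to 81.3 TPM in SOX17+, 65.6 to 78.1 TPM in SOX17+/T+ and 85.6 to 101.2 TPM in T+ libraries, with 5, 5 and 4 of the 12 under 1 TPM, against 3237 to 4051 TPM in mESC libraries, with 0 of 12 under 1 TPM. Lum was listed at 0 in the SOX17+ and T+ libraries and S100a4 in the SOX17+ and SOX17+/T+ libraries. Primitive blood markers summed to 81.6 to 212.1 TPM in SOX17+, 8.46 to 15.8 TPM in SOX17+/T+ and 1.65 to 2.78 TPM in T+ libraries, against 0.806 to 0.867 TPM in mESC libraries, where Hba-x and Hbb-bh1 were listed at 0. The 4 endothelial markers summed to 49.4 to 60.6 TPM in SOX17+ and 29.4 to 32.9 TPM in T+ libraries. Tie1 was at 12.2, 13.3 and 10.3 TPM in SOX17+ and 0.229, 0.520 and 0.315 TPM in T+ libraries. Cdh5 and Pecam1 were also higher in SOX17+ than in T+ libraries, and Kdr was lower. In mESC libraries the sum was 31.0 to 31.8 TPM, most of it Pecam1. The fibroblast, blood and endothelial differences move with the comparisons below, and their part in the results was not tested. In bulk RNA, fewer cells of a type and less RNA per cell cannot be told apart.

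Messenger RNA of the mitochondrial genome was more abundant in all 3 sorted populations than in mESC. Summed over the 13 genes it reached 53378, 57654 and 56620.3 TPM in SOX17+, 56468, 59048 and 63924 TPM in SOX17+/T+ and 59633, 58061 and 62884 TPM in T+ libraries, against 37771, 38891 and 40632 TPM in mESC libraries. The lowest sorted library lay above the highest mESC library. As a share of all TPM this was 5.59 ± 0.223% in SOX17+, 5.98 ± 0.379% in SOX17+/T+ and 6.02 ± 0.246% in T+ cells, against 3.91 ± 0.144% in mESC (SD, n = 3 each). Of the 13 genes, 12 rose and 1, mt-Nd3, fell in SOX17+ cells, in SOX17+/T+ cells and in T+ cells against mESC at an adjusted p under 0.05 (limma on log2(TPM + 1), Benjamini-Hochberg over 16097 genes). The background was large: 85.4% of all tested genes were called in SOX17+ cells, 85.2% in SOX17+/T+ cells and 84.0% in T+ cells, with 35.4%, 34.9% and 34.5% called higher. The median log2 fold change of the 13 genes was 0.43 in SOX17+, 0.58 in SOX17+/T+ and 0.51 in T+ cells, against -0.18, -0.19 and -0.17 over all genes tested.

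The largest rises among the mitochondrial genes were those of mt-Co1 and mt-Co2, both of complex IV. mt-Co1, the catalytic subunit that carries the oxygen-reducing centre, was measured at 13102, 14846 and 14531 TPM in SOX17+, 14255, 15198 and 16705 TPM in SOX17+/T+ and 15832, 15316 and 16942 TPM in T+ libraries. In mESC libraries mt-Co1 had 7202, 7620.4 and 8444 TPM. Every sorted library lay above every mESC library. mt-Co1 had log2 fold changes against mESC of 0.87 ± 0.08 in SOX17+, 0.99 ± 0.08 in SOX17+/T+ and 1.05 ± 0.08 in T+ cells (SE). For mt-Co1, adjusted p-values were 2.5e-06 in SOX17+, 9.0e-07 in SOX17+/T+ and 5.5e-07 in T+ cells. mt-Co2, which takes electrons from cytochrome c, was measured at 5147, 5419 and 5425 TPM in SOX17+, 5407, 5623 and 6039 TPM in SOX17+/T+ and 5691, 5836 and 6324 TPM in T+ libraries. In mESC libraries mt-Co2 had 2939, 3264 and 3307 TPM. mt-Co2 had log2 fold changes against mESC of 0.75 ± 0.06 in SOX17+, 0.84 ± 0.06 in SOX17+/T+ and 0.91 ± 0.06 in T+ cells (SE). For mt-Co2, adjusted p-values were 1.5e-07 in SOX17+, 5.2e-08 in SOX17+/T+ and 2.6e-08 in T+ cells. mt-Co3, the third catalytic-core subunit, rose with log2 fold changes of 0.47 ± 0.04 in SOX17+, 0.58 ± 0.04 in SOX17+/T+ and 0.66 ± 0.04 in T+ cells (SE, adjusted p = 5.8e-07, 8.6e-08 and 2.4e-08).

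The complex I genes of mitochondrial DNA, which form its proton-pumping membrane arm, were not uniform. mt-Nd4 rose with log2 fold changes of 0.59 ± 0.07 in SOX17+, 0.73 ± 0.07 in SOX17+/T+ and 0.68 ± 0.07 in T+ cells (SE, adjusted p = 5.3e-06, 8.7e-07 and 1.5e-06), and mt-Nd4l, whose end overlaps its start, with log2 fold changes of 0.56 ± 0.06 in SOX17+, 0.71 ± 0.06 in SOX17+/T+ and 0.62 ± 0.06 in T+ cells (SE, adjusted p = 2.1e-06, 2.4e-07 and 8.3e-07). mt-Nd2 rose with log2 fold changes of 0.42 ± 0.04 in SOX17+, 0.64 ± 0.04 in SOX17+/T+ and 0.56 ± 0.04 in T+ cells. mt-Nd6, which is read from the other strand and whose mRNA lacks a poly(A) tail in human cells, rose with log2 fold changes of 0.51 ± 0.06 in SOX17+, 0.62 ± 0.06 in SOX17+/T+ and 0.51 ± 0.06 in T+ cells (SE), in libraries selected for poly(A). mt-Nd1 rose least as deposited and fell under quantile normalization, with 4557, 4749.8 and 4454 TPM in SOX17+, 4842, 4981 and 5081 TPM in SOX17+/T+ and 5115, 4896 and 4933 TPM in T+ libraries. In mESC libraries mt-Nd1 had 4036, 4170.4 and 4369 TPM. mt-Nd1 had log2 fold changes against mESC of 0.13 ± 0.03 in SOX17+, 0.25 ± 0.03 in SOX17+/T+ and 0.25 ± 0.03 in T+ cells (SE). For mt-Nd1, adjusted p-values were 0.0016 in SOX17+, 6.8e-06 in SOX17+/T+ and 5.8e-06 in T+ cells. mt-Nd5 was at 1619, 1571 and 1701 TPM in SOX17+, 1899.5, 1908 and 2167 TPM in SOX17+/T+ and 1821, 1729 and 1859.5 TPM in T+ libraries. In mESC libraries mt-Nd5 had 1347, 1434 and 1576 TPM. Its SOX17+ and mESC libraries overlapped, and its log2 fold change of 0.17 ± 0.06 (SE, adjusted p = 0.026) in SOX17+ cells lost the call when SOX17+ replicate 1 or 3 or mESC replicate 1 or 2 was left out (adjusted p = 0.052, 0.091, 0.11 and 0.064). Under quantile normalization it was -0.06 in SOX17+, 0.11 in SOX17+/T+ and 0.03 in T+ cells, with no call. mt-Nd3 went the other way, at 768, 795 and 759 TPM in SOX17+, 830.5, 819.5 and 827 TPM in SOX17+/T+ and 787, 755 and 763 TPM in T+ libraries. In mESC libraries mt-Nd3 had 1042, 1009 and 934 TPM. No sorted library reached the lowest mESC library. mt-Nd3 had log2 fold changes against mESC of -0.36 ± 0.03 in SOX17+, -0.27 ± 0.03 in SOX17+/T+ and -0.37 ± 0.03 in T+ cells (SE). For mt-Nd3, adjusted p-values were 3.7e-07 in SOX17+, 7.6e-06 in SOX17+/T+ and 2.8e-07 in T+ cells.

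mt-Cytb, the only complex III subunit of mitochondrial DNA, was measured at 5026, 5453 and 5519.8 TPM in SOX17+, 4840.4, 5144 and 5752 TPM in SOX17+/T+ and 4826, 4732 and 5219.9 TPM in T+ libraries. In mESC libraries mt-Cytb had 3743, 3918 and 4233 TPM. mt-Cytb had log2 fold changes against mESC of 0.43 ± 0.07 in SOX17+, 0.40 ± 0.07 in SOX17+/T+ and 0.31 ± 0.07 in T+ cells (SE). For mt-Cytb, adjusted p-values were 1.7e-04 in SOX17+, 2.7e-04 in SOX17+/T+ and 0.0016 in T+ cells. Under quantile normalization the value of mt-Cytb was 0.0010 in SOX17+, -0.10 in SOX17+/T+ and -0.13 in T+ cells, not called in any. mt-Atp6 and mt-Atp8, the overlapping ATP synthase genes, changed by nearly the same amount as deposited. For mt-Atp6 the log2 fold changes against mESC were 0.40 ± 0.05 in SOX17+, 0.43 ± 0.05 in SOX17+/T+ and 0.45 ± 0.05 in T+ cells (SE, adjusted p = 1.8e-05, 9.1e-06 and 6.2e-06), and for mt-Atp8 they were 0.41 ± 0.05 in SOX17+, 0.46 ± 0.05 in SOX17+/T+ and 0.46 ± 0.05 in T+ cells (SE, adjusted p = 8.9e-06, 3.2e-06 and 2.8e-06). Under quantile normalization those of mt-Atp6 were 0.03, 0.08 and 0.05, called in SOX17+/T+ cells alone, and those of mt-Atp8 were -0.02, -0.03 and 0.04 in SOX17+, SOX17+/T+ and T+ cells, with no call.

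**Figure D1:**
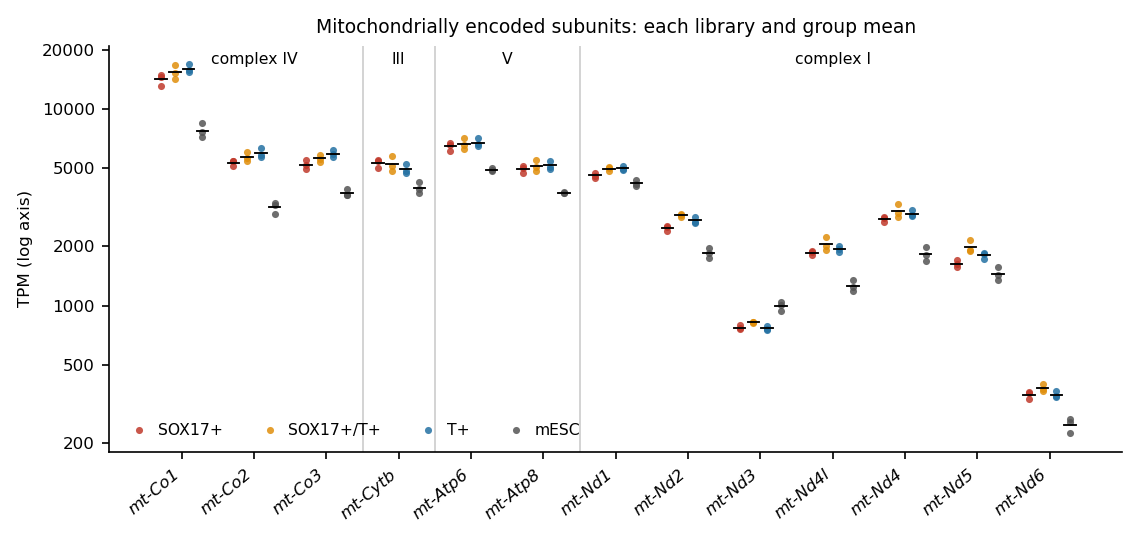
TPM of the 13 mitochondrially encoded genes on a log axis, grouped by complex, with 1 point per library and a bar at the mean of each group (SOX17+, SOX17+/T+, T+ and mESC, 3 libraries each). The sorted libraries lie above the mESC libraries for 11 genes in every population, and mt-Nd3 lies below them. The SOX17+ and mESC points of mt-Nd5 overlap. Of the 80 tested nuclear subunit genes, 64 also had no overlap with mESC in SOX17+, 66 in SOX17+/T+ and 70 in T+ cells. These nuclear counts take either direction. The share of all tested genes without overlap is not given, and 84.0% to 85.4% of them were called against mESC. Neither the nuclear nor the mitochondrial counts of genes without overlap can thus be read as particular to the subunits.

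A ratio between genes of 1 library is the same under any scaling by 1 factor per library, though not under quantile normalization, and 12 of these genes lie on the same strand and so on shared precursors. The ratio of mt-Co1 to mt-Nd1 TPM was 2.87, 3.13 and 3.26 in SOX17+, 2.94, 3.05 and 3.29 in SOX17+/T+ and 3.095, 3.13 and 3.43 in T+ libraries, against 1.78, 1.83 and 1.93 in mESC libraries. The ratio of mt-Co1 to mt-Nd3 TPM was 17.1, 18.7 and 19.1 in SOX17+, 17.2, 18.5 and 20.2 in SOX17+/T+ and 20.1, 20.3 and 22.2 in T+ libraries, against 6.91, 7.56 and 9.04 in mESC libraries. The ratio of mt-Cytb to mt-Co1 TPM was 0.384, 0.367 and 0.380 in SOX17+, 0.340, 0.338 and 0.344 in SOX17+/T+ and 0.305, 0.309 and 0.308 in T+ libraries, against 0.520, 0.514 and 0.501 in mESC libraries, and here the 4 groups did not overlap. After quantile normalization the ratio of mt-Co1 to mt-Nd1 was 3.01 to 3.12 in SOX17+, 2.76 to 2.94 in SOX17+/T+ and 2.70 to 2.85 in T+ libraries, against 1.46 to 1.48 in mESC libraries, and that of mt-Cytb to mt-Co1 was 0.375 to 0.398 in SOX17+, 0.332 to 0.391 in SOX17+/T+ and 0.332 to 0.370 in T+ libraries, against 0.610 to 0.676 in mESC libraries. For mt-Cytb to mt-Co1, SOX17+/T+ then overlapped both other sorted groups, while SOX17+ stayed above T+. The sorted libraries thus held the mitochondrial mRNAs in other proportions than the mESC libraries, as well as at a higher sum.

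Of the 13 mitochondrial genes, 9 have near-identical copies among 11 annotated nuclear pseudogenes (at least 150 shared bases at 95% identity or more). A stretch of mouse chromosome 1 in GRCm38, chr1:24611535-24616197, holds 7 of them. Its copies of mt-Nd3 (Gm28438), mt-Nd4l (Gm10222), mt-Co3 (Gm28437), mt-Atp6 (Gm10925) and mt-Co2 (Gm28661) were each listed at 100.1% to 103.3% of the TPM of the mitochondrial gene in every library. Gm28439 was listed at 66.6% to 68.6% of mt-Nd4, and Gm29216, which shares 483 bases with mt-Co1, at 49.2% to 51.9% of mt-Co1. Reads from identical stretches cannot be told apart, so the level of each of these genes is uncertain. With the copies added to their genes, the mitochondrial share of all TPM became 8.52 ± 0.349% in SOX17+, 9.13 ± 0.577% in SOX17+/T+ and 9.26 ± 0.397% in T+ cells, against 5.87 ± 0.191% in mESC (SD, n = 3 each). The counts of genes that rose and fell stayed at 12 and 1 in each population against mESC, and the log2 fold change of mt-Co1 in T+ cells was 1.07 with the copies and 1.05 without them.

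As deposited, the summed nuclear-encoded subunit mRNA lay lower in the sorted libraries. Over the 87 nuclear genes it amounted to 17559.6, 18147 and 17785 TPM in SOX17+, 17559.7, 17782 and 17518 TPM in SOX17+/T+ and 18109.7, 18250.4 and 18109.5 TPM in T+ libraries, against 19965, 19755 and 20013 TPM in mESC libraries. The highest sorted library lay below the lowest mESC library as deposited, but not after median-of-ratios scaling or quantile normalization. After median-of-ratios scaling the nuclear sum was 17685.5 to 19252 in SOX17+, 17972 to 18747 in SOX17+/T+ and 18234 to 18630.5 in T+ libraries, against 18043 to 18688 in mESC libraries, so that the groups overlapped. After quantile normalization it was 17643 to 18376 in SOX17+, 18420.4 to 18760.1 in SOX17+/T+ and 19005 to 19293 in T+ libraries, against 17917 to 18174 in mESC libraries, with SOX17+/T+ and T+ above mESC. The mitochondrial sum lay above mESC in every sorted library under both, at 52115 to 55713 after quantile normalization in the sorted libraries, against 45140.1 to 46689 in mESC libraries. The ratio of mitochondrial to nuclear subunit TPM, which is the same under any scaling by 1 factor per library, was 3.04, 3.18 and 3.18 in SOX17+, 3.22, 3.32 and 3.65 in SOX17+/T+ and 3.29, 3.18 and 3.47 in T+ libraries, against 1.89, 1.97 and 2.03 in mESC libraries. With the pseudogene copies of the mitochondrial genes added it was 4.63 to 4.86 in SOX17+, 4.91 to 5.57 in SOX17+/T+ and 4.89 to 5.36 in T+ libraries, against 2.85 to 3.04 in mESC libraries. After quantile normalization the ratio was 2.86 to 2.95 in SOX17+, 2.83 to 3.01 in SOX17+/T+ and 2.76 to 2.85 in T+ libraries, against 2.498 to 2.57 in mESC libraries. Sums over chosen genes carry no test here, and for the ratio the sorted and mESC groups did not overlap while the 3 sorted groups lay close together.

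By complex, the ratio was 3.13, 3.09 and 3.11 in SOX17+, 3.41, 3.48 and 3.72 in SOX17+/T+ and 3.33, 3.19 and 3.29 in T+ libraries, against 2.24, 2.35 and 2.47 in mESC libraries for complex I. For complex III it was 2.72 ± 0.0858 in SOX17+, 2.68 ± 0.229 in SOX17+/T+ and 2.47 ± 0.145 in T+ cells, against 1.78 ± 0.0910 in mESC (SD, n = 3 each). For complex IV it was 6.34, 6.98 and 6.84 in SOX17+, 6.82, 7.06 and 7.73 in SOX17+/T+ and 7.21, 7.02 and 7.89 in T+ libraries, against 3.34, 3.52 and 3.69 in mESC libraries, the widest gap of the 4 complexes with subunits of both genomes. For complex V it was 1.64 ± 0.0469 in SOX17+, 1.73 ± 0.138 in SOX17+/T+ and 1.69 ± 0.0885 in T+ cells, against 1.10 ± 0.0161 in mESC (SD, n = 3 each). The sorted libraries lay above the mESC libraries in all 4. As deposited, in complex IV the mitochondrial sum averaged 24692 ± 1319 TPM in SOX17+, 26673 ± 1800.3 TPM in SOX17+/T+ and 27908 ± 1363 TPM in T+ cells, against 14668 ± 692 TPM in mESC, and the nuclear sum averaged 3673 ± 12.6 TPM in SOX17+, 3704 ± 33.3 TPM in SOX17+/T+ and 3787 ± 48.8 TPM in T+ cells, against 4173 ± 33.0 TPM in mESC (SD, n = 3 each). Complex II, which has no mitochondrially encoded subunit, had a nuclear sum of 587 ± 12.2 TPM in SOX17+, 589 ± 3.66 TPM in SOX17+/T+ and 614 ± 4.24 TPM in T+ cells, against 600.3 ± 6.82 TPM in mESC (SD, n = 3 each).

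**Figure D2:**
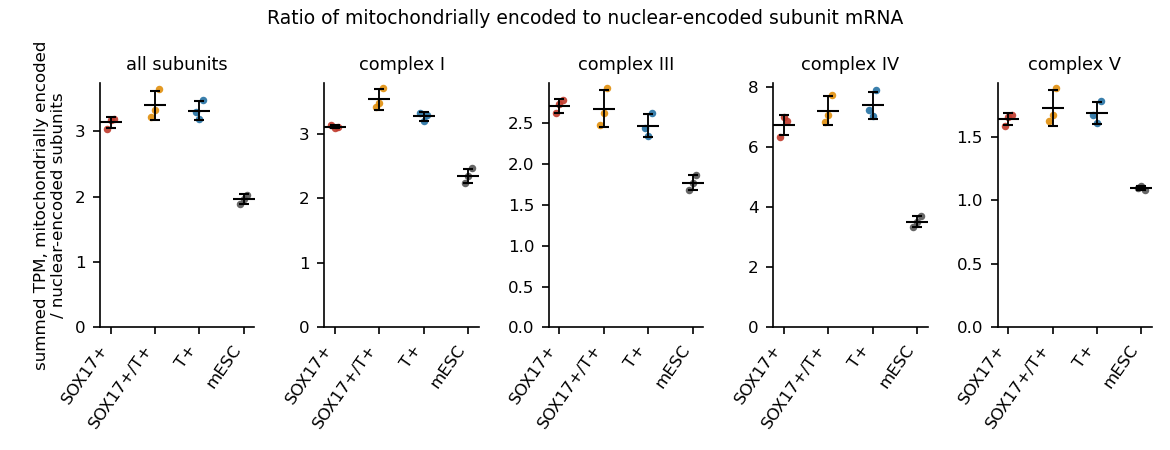
Ratio of summed TPM of mitochondrially encoded to nuclear-encoded subunit genes, for all subunits and for the 4 complexes with subunits from both genomes, each axis starting at 0. Points are libraries, the bar is the group mean and the whiskers are the SD of 3 libraries, and every sorted library lies above every mESC library in all 5 panels.

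Single nuclear genes did not follow their sum as a block. Of the 87 nuclear genes, 80 passed the filter of at least 1 TPM in at least 3 libraries. Of these 80, 22 rose, 39 fell and 19 were not called in SOX17+ cells against mESC, where 35.4% of all tested genes were called higher and 50.0% lower. In SOX17+/T+ cells 18 rose and 47 fell, where 34.9% of all were called higher and 50.3% lower, and in T+ cells 22 rose and 41 fell, where 34.5% were called higher and 49.5% lower. As deposited, 27.5% of the nuclear subunits rose and 48.8% fell in SOX17+, 22.5% and 58.8% in SOX17+/T+, and 27.5% and 51.2% in T+ cells, so rises were a smaller share of them than of all genes in each population. The comparison with all genes turned after quantile normalization, as given below. Their median log2 fold change was -0.10 in SOX17+, -0.16 in SOX17+/T+ and -0.12 in T+ cells, above the medians of all genes tested of -0.18, -0.19 and -0.17. Relative to those medians, 47 of the 80 genes lay above and 33 below in SOX17+ cells, 43 and 37 in SOX17+/T+ cells, and 45 and 35 in T+ cells. All 3 comparisons share the mESC libraries. In all 3 of them 18 nuclear genes rose and 34 fell, and 3 genes, Atp5g3, Ndufa10 and Ndufa3, rose in one population and fell in another. Ndufa9, Ndufs3, Cox8a, Ndufa13 and Ndufc1 were among those not called in any of the 6 comparisons between groups.

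**Figure D3:**
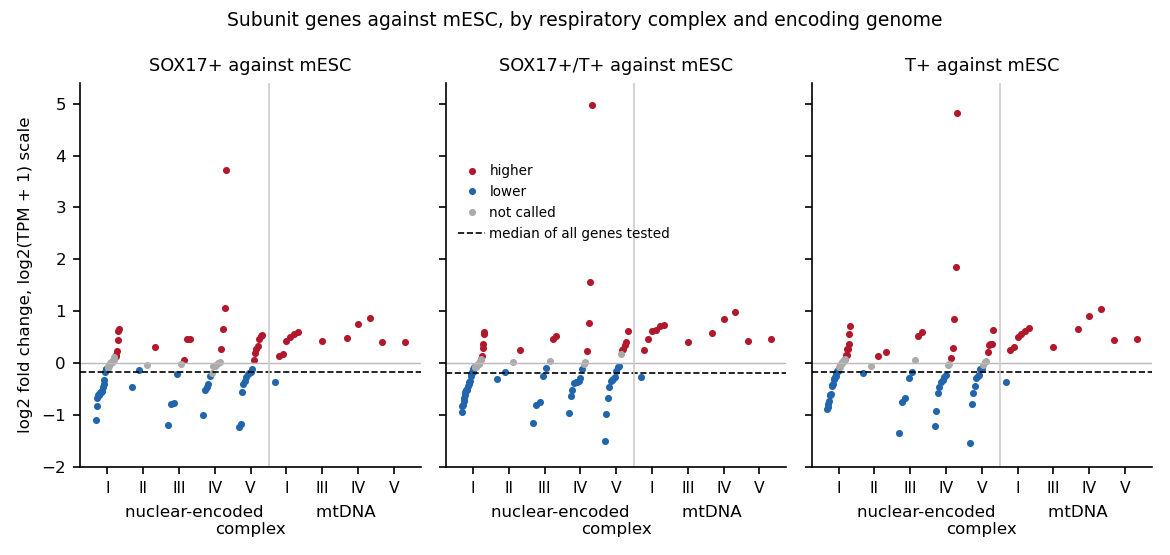
Log2 fold change on the log2(TPM + 1) scale of each tested subunit gene against mESC, 1 panel per sorted population, by complex and encoding genome. Red points were called higher, blue lower and grey not called, and the dashed line is the median of all genes tested (-0.18, -0.19 and -0.17); the mitochondrial genes lie above it except mt-Nd3, while nuclear genes of every complex lie on both sides.

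The direction of the nuclear counts depended on how libraries were scaled. The median log2 fold change of all genes against mESC was -0.18 in SOX17+, -0.19 in SOX17+/T+ and -0.17 in T+ cells as deposited. It was -0.04 in each after median-of-ratios scaling, and 0.05, 0.06 and 0.07 after quantile normalization. In SOX17+ cells, 37 nuclear subunit genes rose and 28 fell after median-of-ratios scaling, and 44 rose and 25 fell after quantile normalization. In SOX17+/T+ cells the counts were 34 and 32, and 45 and 24, and in T+ cells 35 and 27, and 50 and 20. Over all genes the share of calls that were higher was 41.5% as deposited and 52.4% after quantile normalization in SOX17+ cells, 40.9% and 53.2% in SOX17+/T+ cells, and 41.0% and 53.4% in T+ cells. As deposited, rises made up a smaller part of the nuclear subunit calls than of all calls in each population. After quantile normalization they made up a larger part. The mitochondrial genes kept counts of 12 risen and 1 fallen under median-of-ratios scaling and under scaling to the genes outside mitochondrial DNA. Under quantile normalization, which gives the genes of the same rank the same value in every library, 6 rose and 2 fell in SOX17+, 8 and 2 in SOX17+/T+, and 7 and 2 in T+ cells, with mt-Nd1 turning to -0.30, -0.21 and -0.17.

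**Figure D4:**
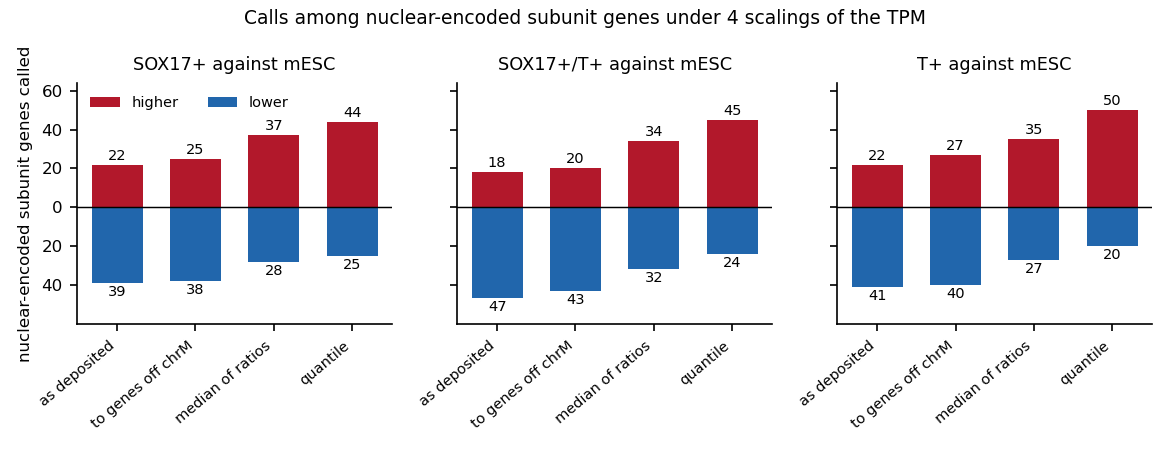
Number of the 80 tested nuclear-encoded subunit genes called higher (bars above 0) and lower (bars below 0) against mESC in each sorted population under 4 scalings of the TPM values. Falls outnumber rises as deposited (22 and 39 in SOX17+, 18 and 47 in SOX17+/T+, 22 and 41 in T+ cells), and rises outnumber falls after quantile normalization.

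Under all 4 scalings and in all 3 populations against mESC, 18 nuclear genes rose and 18 fell. The share of all tested genes that meet this rule is not given. As deposited, 85.4% of all tested genes were called in SOX17+, 85.2% in SOX17+/T+ and 84.0% in T+ cells. The counts therefore cannot be read as particular to the subunit genes. The risen genes were Atp5c1, Atp5e, Atp5g2, Atp5mpl, Atp5s, Cox6b1, Cox6b2, Cox7a2l, Ndufa4l2, Ndufa6, Ndufa7, Ndufb11, Ndufb5, Ndufc2, Ndufv3, Sdhd, Uqcrc2 and Uqcrh. The fallen genes were Atp5b, Atp5g1, Atp5j, Atp5l, Cox5a, Cox6a1, Cox7c, Ndufa11, Ndufa8, Ndufb10, Ndufb4, Ndufb4c, Ndufs1, Ndufs5, Ndufs6, Uqcr10, Uqcrc1 and Uqcrq. Both lists hold subunits of complexes I, III, IV and V. These calls are of each gene alone, without its pseudogene copies added. Some of the genes, such as Atp5j and Ndufb5, share exon bases with a gene on the opposite strand, as given above. Among the mitochondrial genes, mt-Co1, mt-Co2, mt-Nd2, mt-Nd4, mt-Nd4l and mt-Nd6 rose and mt-Nd3 fell under all 4.

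Complex I, the NADH dehydrogenase, had 36 tested nuclear genes, of which 7 rose and 18 fell in SOX17+, 6 and 20 in SOX17+/T+, and 8 and 18 in T+ cells against mESC as deposited, whereas after quantile normalization 22 rose and 12 fell in SOX17+, 22 and 10 in SOX17+/T+, and 22 and 8 in T+ cells. As deposited, their log2 fold changes ran from -1.09 (Ndufa11) to 0.66 (Ndufb11) in SOX17+, from -0.95 (Ndufa11) to 0.60 (Ndufb11) in SOX17+/T+ and from -0.88 (Ndufa11) to 0.72 (Ndufb11) in T+ cells. Of all tested genes, 35.4% were called higher and 50.0% lower in SOX17+ cells as deposited. These shares were 34.9% and 50.3% in SOX17+/T+ cells, and 34.5% and 49.5% in T+ cells. Counts per complex were not tested against them, and the turn after quantile normalization was also seen over all genes, as given above. Ndufs1, which holds iron-sulfur clusters of the NADH-oxidizing arm, fell under all 4 scalings and was measured at 66.7, 67.1 and 70.3 TPM in SOX17+, 68.0, 65.1 and 70.8 TPM in SOX17+/T+ and 72.4, 71.5 and 72.9 TPM in T+ libraries. In mESC libraries Ndufs1 had 124, 122 and 118 TPM. Its sorted libraries all lay below its mESC libraries. Ndufs1 had log2 fold changes against mESC of -0.83 ± 0.04 in SOX17+, -0.83 ± 0.04 in SOX17+/T+ and -0.74 ± 0.04 in T+ cells (SE). For Ndufs1, adjusted p-values were 1.6e-10 in SOX17+, 1.6e-10 in SOX17+/T+ and 5.1e-10 in T+ cells.

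Among the 29 tested accessory subunit genes of complex I, 7 rose and 14 fell in SOX17+, 6 and 15 in SOX17+/T+, and 8 and 15 in T+ cells as deposited, and 18 rose and 9 fell in SOX17+, 18 and 8 in SOX17+/T+, and 17 and 7 in T+ cells after quantile normalization. Across the 3 populations, 34.5% to 35.4% of all tested genes were called higher and 49.5% to 50.3% lower as deposited. Ndufa11, an accessory subunit of the membrane arm (chr17:56717767-56722141), fell furthest in complex I, with 120.4, 128 and 120.3 TPM in SOX17+, 137, 134 and 135 TPM in SOX17+/T+ and 134, 146 and 148 TPM in T+ libraries. In mESC libraries Ndufa11 had 255, 271 and 263 TPM. Ndufa11 had log2 fold changes against mESC of -1.09 ± 0.04 in SOX17+, -0.95 ± 0.04 in SOX17+/T+ and -0.88 ± 0.04 in T+ cells (SE). For Ndufa11, adjusted p-values were 1.7e-11 in SOX17+, 7.4e-11 in SOX17+/T+ and 1.7e-10 in T+ cells. Ndufs6 fell with log2 fold changes of -0.62 ± 0.03 in SOX17+, -0.73 ± 0.03 in SOX17+/T+ and -0.85 ± 0.03 in T+ cells (SE, adjusted p = 2.1e-10, 3.7e-11 and 8.0e-12), and Ndufb10 with log2 fold changes of -0.68 ± 0.06 in SOX17+, -0.80 ± 0.06 in SOX17+/T+ and -0.80 ± 0.06 in T+ cells (SE, adjusted p = 2.8e-07, 5.1e-08 and 5.2e-08). In the other direction, the X-linked accessory subunit gene Ndufb11 (chrX:20615326-20617619) was measured at 206, 206 and 197 TPM in SOX17+, 198, 197 and 189 TPM in SOX17+/T+ and 217, 215 and 204 TPM in T+ libraries. In mESC libraries Ndufb11 had 124, 129.8 and 131 TPM. Every sorted library lay above every mESC library. Ndufb11 had log2 fold changes against mESC of 0.66 ± 0.03 in SOX17+, 0.60 ± 0.03 in SOX17+/T+ and 0.72 ± 0.03 in T+ cells (SE). For Ndufb11, adjusted p-values were 6.4e-10 in SOX17+, 1.8e-09 in SOX17+/T+ and 2.7e-10 in T+ cells. Ndufa6, an accessory subunit of the LYR-motif family, rose with log2 fold changes of 0.62 ± 0.04 in SOX17+, 0.56 ± 0.04 in SOX17+/T+ and 0.57 ± 0.04 in T+ cells (SE, adjusted p = 2.5e-09, 7.7e-09 and 6.3e-09). Ndufa7, the most abundant nuclear complex I gene of the 12 libraries, averaged 350.2 ± 3.01 TPM in SOX17+, 385 ± 2.13 TPM in SOX17+/T+ and 379 ± 12.6 TPM in T+ cells, against 315 ± 3.72 TPM in mESC (SD, n = 3 each). Ndufb8, the next, was not called against mESC, with log2 fold changes of 0.01 ± 0.04 in SOX17+, -0.07 ± 0.04 in SOX17+/T+ and 0.08 ± 0.04 in T+ cells (SE, adjusted p = 0.75, 0.11 and 0.07).

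Ndufb4 and the processed pseudogene Ndufb4c, which is also a member by its name, were listed at nearly the same level and with nearly the same change. Ndufb4 averaged 45.3 ± 1.10 TPM in SOX17+, 47.0 ± 1.53 TPM in SOX17+/T+ and 43.9 ± 0.287 TPM in T+ cells, against 66.8 ± 0.402 TPM in mESC, and Ndufb4c averaged 44.9 ± 2.21 TPM in SOX17+, 46.7 ± 2.26 TPM in SOX17+/T+ and 44.9 ± 0.394 TPM in T+ cells, against 69.0 ± 1.04 TPM in mESC (SD, n = 3 each). Their sequences are nearly identical, so the reads of one may be split between them, and the level of each is uncertain. The same holds for Ndufs5, whose copy BC002163 was listed at 129.6% to 216.4% of its TPM, and for Ndufa12, whose copy Gm15920 was listed at 42.7% to 60.6%. The Ndufs5 copy changed less than the gene, averaging 93.8 TPM in SOX17+, 91.2 in SOX17+/T+ and 99.5 in T+ cells, against 106.2 TPM in mESC. Gene and copy together averaged 143.2, 137.9 and 148.3 TPM in the same order, against 181.2 TPM in mESC. The size of the fall of Ndufs5 is thus uncertain as well.

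Complex II, succinate dehydrogenase, is the only complex made wholly of nuclear subunits. As deposited its iron-sulfur subunit gene Sdhb fell and its membrane anchor gene Sdhd rose in each population. Sdhb was measured at 104, 109.8 and 111 TPM in SOX17+, 118, 117 and 125 TPM in SOX17+/T+ and 132, 126 and 132 TPM in T+ libraries. In mESC libraries Sdhb had 149.5, 147 and 152 TPM. Sdhb had log2 fold changes against mESC of -0.46 ± 0.04 in SOX17+, -0.32 ± 0.04 in SOX17+/T+ and -0.20 ± 0.04 in T+ cells (SE). For Sdhb, adjusted p-values were 5.7e-08 in SOX17+, 2.9e-06 in SOX17+/T+ and 2.1e-04 in T+ cells. Under quantile normalization Sdhb was at 0.02 in SOX17+/T+ and 0.14 in T+ cells. Sdhd was measured at 235, 251 and 236 TPM in SOX17+, 231, 236 and 227 TPM in SOX17+/T+ and 226, 228 and 225 TPM in T+ libraries. In mESC libraries Sdhd had 194, 189.6 and 201 TPM. Sdhd rose with log2 fold changes of 0.30 ± 0.03 in SOX17+, 0.25 ± 0.03 in SOX17+/T+ and 0.21 ± 0.03 in T+ cells (SE, adjusted p = 1.1e-06, 8.4e-06 and 3.2e-05). Sdhc, the other anchor, was called against mESC in T+ cells alone, at 0.14 ± 0.04 (SE, adjusted p = 0.0034). Sdha, the catalytic flavoprotein gene, fell by 0.13 in SOX17+ and 0.17 in SOX17+/T+ cells (log2, adjusted p = 4.2e-04 and 5.5e-05), and turned to 0.14 and 0.21 under quantile normalization.

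Complex III, the cytochrome bc1 complex, split between its core proteins. Uqcrc1 was measured at 197, 199 and 208 TPM in SOX17+, 203, 200.4 and 208 TPM in SOX17+/T+ and 219.6, 214 and 219 TPM in T+ libraries. In mESC libraries Uqcrc1 had 342, 348 and 347 TPM. Uqcrc2 was measured at 211, 215 and 215 TPM in SOX17+, 213, 213 and 213 TPM in SOX17+/T+ and 219.6, 225 and 224 TPM in T+ libraries. In mESC libraries Uqcrc2 had 155, 151 and 158 TPM. Sorted and mESC libraries overlapped for neither gene, and the order was opposite: Uqcrc1 fell and Uqcrc2 rose under all 4 scalings. Uqcrc1 had log2 fold changes against mESC of -0.78 ± 0.03 in SOX17+, -0.76 ± 0.03 in SOX17+/T+ and -0.67 ± 0.03 in T+ cells (SE). For Uqcrc1, adjusted p-values were 1.2e-11 in SOX17+, 1.5e-11 in SOX17+/T+ and 5.7e-11 in T+ cells. Uqcrc2 had log2 fold changes against mESC of 0.47 ± 0.03 in SOX17+, 0.46 ± 0.03 in SOX17+/T+ and 0.53 ± 0.03 in T+ cells (SE). For Uqcrc2, adjusted p-values were 1.1e-09 in SOX17+, 1.3e-09 in SOX17+/T+ and 3.2e-10 in T+ cells. The small subunit Uqcrq fell further than any other gene of the complex, at 92.0, 113 and 107 TPM in SOX17+, 105, 102 and 109.6 TPM in SOX17+/T+ and 85.5, 99.7 and 93.7 TPM in T+ libraries. In mESC libraries Uqcrq had 229.9, 239 and 244 TPM. Uqcrq had log2 fold changes against mESC of -1.19 ± 0.07 in SOX17+, -1.16 ± 0.07 in SOX17+/T+ and -1.35 ± 0.07 in T+ cells (SE). For Uqcrq, adjusted p-values were 2.7e-09 in SOX17+, 3.4e-09 in SOX17+/T+ and 7.6e-10 in T+ cells. The hinge protein gene Uqcrh, the most abundant nuclear gene of complex III, rose with log2 fold changes of 0.46 ± 0.03 in SOX17+, 0.52 ± 0.03 in SOX17+/T+ and 0.61 ± 0.03 in T+ cells (SE), and the small subunit gene Uqcr10 fell with log2 fold changes of -0.78 ± 0.03 in SOX17+, -0.80 ± 0.03 in SOX17+/T+ and -0.75 ± 0.03 in T+ cells (SE). Uqcr11, another small subunit gene, averaged 267 ± 5.23 TPM in SOX17+, 252 ± 1.84 TPM in SOX17+/T+ and 241 ± 1.11 TPM in T+ cells, against 270.5 ± 3.61 TPM in mESC (SD, n = 3 each), and its direction turned with the scaling. Of the 8 tested nuclear genes of the complex 3 rose and 4 fell in SOX17+, 2 and 5 in SOX17+/T+, and 2 and 5 in T+ cells as deposited, and 4 rose and 3 fell in SOX17+, 4 and 3 in SOX17+/T+, and 4 and 3 in T+ cells after quantile normalization. These are few genes, beside 34.5% to 35.4% of all tested genes higher and 49.5% to 50.3% lower as deposited.

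Complex IV, cytochrome c oxidase, had 15 tested nuclear genes, of which 4 rose and 5 fell in SOX17+, 4 and 9 in SOX17+/T+, and 5 and 8 in T+ cells against mESC as deposited, and 7 rose and 4 fell in SOX17+, 7 and 5 in SOX17+/T+, and 8 and 4 in T+ cells after quantile normalization. As deposited, their log2 fold changes ran from -1.0 (Cox5a) to 3.72 (Ndufa4l2) in SOX17+, from -0.96 (Cox5a) to 4.97 (Ndufa4l2) in SOX17+/T+ and from -1.22 (Cox7a1) to 4.83 (Ndufa4l2) in T+ cells. The counts stand beside 34.5% to 35.4% of all tested genes called higher and 49.5% to 50.3% lower as deposited. Cox5a, a nuclear subunit present in all tissues, was measured at 296, 304 and 311 TPM in SOX17+, 311, 311 and 309.7 TPM in SOX17+/T+ and 313, 313 and 328 TPM in T+ libraries. In mESC libraries Cox5a had 619, 597 and 606 TPM. The sorted libraries were close to each other and all below the mESC libraries. Cox5a had log2 fold changes against mESC of -1.0 ± 0.03 in SOX17+, -0.96 ± 0.03 in SOX17+/T+ and -0.93 ± 0.03 in T+ cells (SE). For Cox5a, adjusted p-values were 6.8e-13 in SOX17+, 1.0e-12 in SOX17+/T+ and 1.4e-12 in T+ cells. Cox7c fell with log2 fold changes of -0.46 ± 0.03 in SOX17+, -0.37 ± 0.03 in SOX17+/T+ and -0.46 ± 0.03 in T+ cells, and Cox6a1 with log2 fold changes of -0.52 ± 0.03 in SOX17+, -0.64 ± 0.03 in SOX17+/T+ and -0.58 ± 0.03 in T+ cells (SE). Cox7b averaged 217 ± 2.34 TPM in SOX17+, 198 ± 3.43 TPM in SOX17+/T+ and 202 ± 3.29 TPM in T+ cells, against 259 ± 2.14 TPM in mESC (SD, n = 3 each), and the pseudogene Cox6c2 averaged 11.4 ± 0.734 TPM in SOX17+, 8.94 ± 0.753 TPM in SOX17+/T+ and 10.8 ± 0.889 TPM in T+ cells, against 13.3 ± 1.67 TPM in mESC (SD, n = 3 each). Cox8a, the most abundant nuclear gene of this complex, was not called as deposited in any population, at 578 ± 23.9 TPM in SOX17+, 592 ± 15.5 TPM in SOX17+/T+ and 587 ± 15.3 TPM in T+ cells, against 599 ± 14.8 TPM in mESC (SD, n = 3 each). Cox6b1, at the side that faces cytochrome c, rose with log2 fold changes of 0.28 ± 0.02 in SOX17+, 0.23 ± 0.02 in SOX17+/T+ and 0.29 ± 0.02 in T+ cells (SE, adjusted p = 1.5e-07, 1.2e-06 and 8.4e-08).

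Complex V, the ATP synthase, had 17 tested nuclear genes, of which 7 rose and 10 fell in SOX17+, 5 and 11 in SOX17+/T+, and 5 and 9 in T+ cells as deposited, and 8 rose and 5 fell in SOX17+, 9 and 6 in SOX17+/T+, and 12 and 5 in T+ cells after quantile normalization. As deposited, their log2 fold changes ran from -1.23 (Atp5l) to 0.55 (Atp5s) in SOX17+, from -1.50 (Atp5g1) to 0.63 (Atp5g2) in SOX17+/T+ and from -1.54 (Atp5g1) to 0.63 (Atp5g2) in T+ cells. Counts for the complex and its parts stand beside 34.5% to 35.4% of all tested genes higher and 49.5% to 50.3% lower as deposited. Within the catalytic F1 head, Atp5b, the beta subunit that makes ATP and the most abundant nuclear member, averaged 1412 ± 29.6 TPM in SOX17+, 1355 ± 35.01 TPM in SOX17+/T+ and 1374 ± 20.1 TPM in T+ cells, against 1879 ± 10.7 TPM in mESC (SD, n = 3 each) and fell with log2 fold changes of -0.41 ± 0.02 in SOX17+, -0.47 ± 0.02 in SOX17+/T+ and -0.45 ± 0.02 in T+ cells (SE, adjusted p = 9.6e-10, 2.5e-10 and 3.9e-10). Its partner Atp5a1, the alpha subunit, fell with log2 fold changes of -0.35 ± 0.03 in SOX17+, -0.34 ± 0.03 in SOX17+/T+ and -0.23 ± 0.03 in T+ cells (SE). The rotor shaft gene Atp5c1 rose with log2 fold changes of 0.26 ± 0.03 in SOX17+, 0.27 ± 0.03 in SOX17+/T+ and 0.36 ± 0.03 in T+ cells (SE, adjusted p = 4.4e-06, 2.9e-06 and 1.5e-07). Of the 4 tested genes of the peripheral stalk, which holds the head still, 0 rose and 4 fell in SOX17+, 0 and 4 in SOX17+/T+, and 0 and 3 in T+ cells as deposited (0 higher also at an unadjusted p under 0.05), whereas after quantile normalization 0 rose and 1 fell in SOX17+, 1 and 2 in SOX17+/T+, and 3 and 1 in T+ cells. Atp5l, subunit g of the membrane part (chr9:44912557-44920742), was measured at 110.4, 115 and 113 TPM in SOX17+, 128, 135 and 139 TPM in SOX17+/T+ and 151, 153 and 156 TPM in T+ libraries. In mESC libraries Atp5l had 268, 269 and 262 TPM. The 4 groups did not overlap. Atp5l had log2 fold changes against mESC of -1.23 ± 0.03 in SOX17+, -0.99 ± 0.03 in SOX17+/T+ and -0.79 ± 0.03 in T+ cells (SE). For Atp5l, adjusted p-values were 6.8e-13 in SOX17+, 6.4e-12 in SOX17+/T+ and 5.7e-11 in T+ cells. A copy of 309 identical bases, Gm10221, was listed at 53.1% to 61.6% of Atp5l, and with the copies added the change in SOX17+ cells was -1.29.

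Paralogous genes within a complex gave some of the sharpest contrasts. The 3 genes for subunit c of the ATP synthase rotor ring encode the same mature protein behind different mitochondrial import sequences. Atp5g1 (chr11:96068852-96075670) was measured at 179, 176 and 179 TPM in SOX17+, 140.5, 149 and 136 TPM in SOX17+/T+ and 153, 129 and 131 TPM in T+ libraries. In mESC libraries Atp5g1 had 413, 405 and 390.4 TPM. Atp5g1 had log2 fold changes against mESC of -1.17 ± 0.06 in SOX17+, -1.50 ± 0.06 in SOX17+/T+ and -1.54 ± 0.06 in T+ cells (SE). For Atp5g1, adjusted p-values were 2.2e-10 in SOX17+, 1.9e-11 in SOX17+/T+ and 1.4e-11 in T+ cells. Atp5g2 (chr15:102662864-102672352) was measured at 512, 532 and 483 TPM in SOX17+, 555, 565 and 529 TPM in SOX17+/T+ and 561, 551 and 544 TPM in T+ libraries. In mESC libraries Atp5g2 had 352, 355 and 360.3 TPM. Atp5g2 had log2 fold changes against mESC of 0.51 ± 0.03 in SOX17+, 0.63 ± 0.03 in SOX17+/T+ and 0.63 ± 0.03 in T+ cells (SE). For Atp5g2, adjusted p-values were 7.9e-09 in SOX17+, 1.0e-09 in SOX17+/T+ and 9.2e-10 in T+ cells. Atp5g3 averaged 676 ± 9.11 TPM in SOX17+, 623 ± 12.1 TPM in SOX17+/T+ and 631 ± 8.69 TPM in T+ cells, against 647 ± 6.10 TPM in mESC (SD, n = 3 each), with log2 fold changes of 0.06 ± 0.02 in SOX17+, -0.05 ± 0.02 in SOX17+/T+ and -0.03 ± 0.02 in T+ cells (SE, adjusted p = 0.016, 0.033 and 0.15). As a share of the 3 genes, Atp5g1 made up 13.2, 12.6 and 13.3% in SOX17+, 10.8, 11.1 and 10.5% in SOX17+/T+ and 11.5, 9.80 and 10.1% in T+ libraries, against 29.3, 28.8 and 27.8% in mESC libraries, and Atp5g2 made up 37.3 ± 1.23% in SOX17+, 41.8 ± 0.973% in SOX17+/T+ and 41.8 ± 0.111% in T+ cells, against 25.3 ± 0.321% in mESC (SD, n = 3 each). The summed TPM of the 3 genes differed less, at 1363 ± 23.5 TPM in SOX17+, 1314 ± 18.7 TPM in SOX17+/T+ and 1321 ± 18.4 TPM in T+ cells, against 1405 ± 1.699 TPM in mESC (SD, n = 3 each). These shares are the same under any scaling by 1 factor per library. After quantile normalization Atp5g1 made up 12.9 to 13.4% in SOX17+, 10.8 to 11.6% in SOX17+/T+ and 10.04 to 11.7% in T+ libraries, against 27.7 to 28.8% in mESC libraries. A pseudogene copy, Gm10039, was listed at 10.2% to 14.6% of Atp5g1, and adding it left the change in SOX17+ cells at -1.17.

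Ndufa4l2 (chr10:127514967-127517154), a paralogue of the complex IV subunit Ndufa4 that is known to be induced by low oxygen, was measured at 36.0, 39.0 and 21.8 TPM in SOX17+, 83.1, 88.0 and 59.6 TPM in SOX17+/T+ and 76.4, 80.0 and 53.2 TPM in T+ libraries. In mESC libraries Ndufa4l2 had 1.41, 1.45 and 1.50 TPM. It was the member with the largest rise in each population. Ndufa4l2 had log2 fold changes against mESC of 3.72 ± 0.23 in SOX17+, 4.97 ± 0.23 in SOX17+/T+ and 4.83 ± 0.23 in T+ cells (SE). For Ndufa4l2, adjusted p-values were 5.7e-08 in SOX17+, 4.9e-09 in SOX17+/T+ and 6.2e-09 in T+ cells. Replicate 3 was the lowest library of each sorted group. Ndufa4 itself averaged 356 ± 17.9 TPM in SOX17+, 357 ± 5.34 TPM in SOX17+/T+ and 374 ± 6.61 TPM in T+ cells, against 351 ± 14.2 TPM in mESC (SD, n = 3 each). As a share of the summed TPM of both genes, Ndufa4l2 made up 8.29 ± 2.29% in SOX17+, 17.7 ± 3.13% in SOX17+/T+ and 15.7 ± 2.81% in T+ cells, against 0.413 ± 0.0183% in mESC (SD, n = 3 each).

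Cox6b2 (chr7:4751792-4753094), known as the testis isoform of Cox6b1, was measured at 74.8, 72.9 and 72.1 TPM in SOX17+, 100.2, 112 and 102 TPM in SOX17+/T+ and 126, 134 and 124 TPM in T+ libraries. In mESC libraries Cox6b2 had 36.1, 33.4 and 34.8 TPM. The 4 groups did not overlap, in the order T+, SOX17+/T+, SOX17+ and mESC from the highest. Cox6b2 had log2 fold changes against mESC of 1.06 ± 0.05 in SOX17+, 1.56 ± 0.05 in SOX17+/T+ and 1.85 ± 0.05 in T+ cells (SE). For Cox6b2, adjusted p-values were 1.2e-10 in SOX17+, 2.5e-12 in SOX17+/T+ and 4.8e-13 in T+ cells. Cox7a1 (chr7:30184144-30186078), the heart and muscle isoform of Cox7a2, was measured at 9.76, 11.7 and 10.6 TPM in SOX17+, 9.50, 7.63 and 8.89 TPM in SOX17+/T+ and 4.31, 4.06 and 4.33 TPM in T+ libraries. In mESC libraries Cox7a1 had 11.3, 12.2 and 10.2 TPM. T+ libraries stood apart below the other groups, with a change of -1.22 ± 0.09 (SE, adjusted p = 1.9e-08) against mESC, while in SOX17+ cells it was -0.07 ± 0.09 (SE, adjusted p = 0.48). Cox7a2l, a paralogue that joins complexes III and IV into supercomplexes, averaged 249 ± 1.88 TPM in SOX17+, 271 ± 0.733 TPM in SOX17+/T+ and 283 ± 3.72 TPM in T+ cells, against 158 ± 1.57 TPM in mESC (SD, n = 3 each), with log2 fold changes of 0.66 ± 0.02 in SOX17+, 0.78 ± 0.02 in SOX17+/T+ and 0.84 ± 0.02 in T+ cells (SE, adjusted p = 8.4e-12, 1.7e-12 and 8.1e-13). Its copy Gm6969 was listed at 106.2% to 116.3% of its TPM, so its level is uncertain, and with the copy added its change in T+ cells was 0.82. The heart and muscle isoform Cox6a2, the testis isoform Cox7b2 and Cox8b averaged under 1 TPM in every group, as did Ndufa11b and Ndufs6b. These genes did not pass the filter, nor did Cox8c, listed at 0 in the 9 sorted libraries and at 0.872, 2.04 and 1.28 TPM in mESC libraries, nor a second gene identifier named Atp5o.

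**Figure D5:**
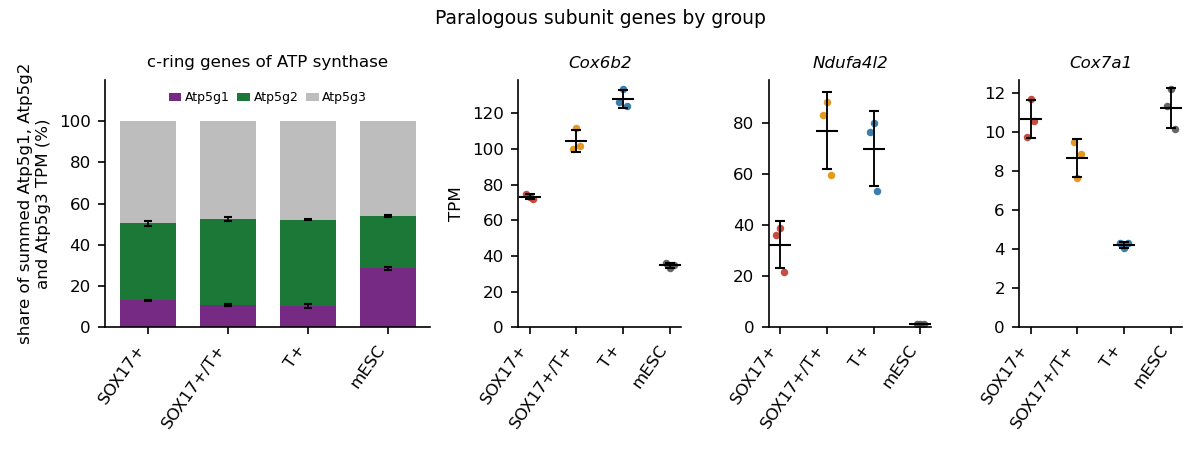
Left, mean share of Atp5g1, Atp5g2 and Atp5g3 in their summed TPM by group, with the SD of 3 libraries as whiskers on the lower segments. Right, TPM of Cox6b2, Ndufa4l2 and Cox7a1 in each library (points) with the group mean and SD; Atp5g1 made up 13.1% in SOX17+ and 28.7% in mESC, and Cox7a1 was lowest in T+ cells.

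Between SOX17+ and T+ cells the nuclear subunit genes differed less than against mESC. Of the 80 tested, 14 were higher and 23 lower in SOX17+ than in T+ cells, where 54.5% of all tested genes were called, 25.4% higher and 29.0% lower. After quantile normalization 8 were higher and 39 lower, and 8 higher and 15 lower held under all 4 scalings. The all-gene shares given here are those as deposited, so the shift after quantile normalization cannot be read as particular to the subunit genes. Ndufv1, which binds NADH in complex I (chr19:4007497-4012806), was measured at 94.98, 101 and 106 TPM in SOX17+ libraries, 109, 111 and 114 TPM in SOX17+/T+ libraries and 136, 148 and 147 TPM in T+ libraries. The SOX17+ and T+ libraries did not overlap, and the log2 fold change of SOX17+ over T+ was -0.51 ± 0.04 (SE, adjusted p = 3.7e-07). Other genes lower in SOX17+ than in T+ cells were Ndufa4l2 at -1.11 ± 0.23 (SE, adjusted p = 0.0021), Cox6b2 at -0.80 ± 0.05 (SE, adjusted p = 1.3e-08), Atp5l at -0.44 ± 0.03 (SE, adjusted p = 1.2e-07) and Sdhb at -0.26 ± 0.04 (SE, adjusted p = 5.4e-05). Genes higher in SOX17+ than in T+ cells were led by Cox7a1 at 1.15 ± 0.09 (SE, adjusted p = 1.6e-07), followed by Atp5d, the delta subunit of F1, at 0.44 ± 0.11 (SE, adjusted p = 0.0052), Atp5g1 at 0.37 ± 0.06 (SE, adjusted p = 8.8e-05) and Ndufs6 at 0.24 ± 0.03 (SE, adjusted p = 1.4e-05). Ndufa3, an accessory subunit of complex I, averaged 107 ± 1.51 TPM in SOX17+ and 88.5 ± 2.60 TPM in T+ cells (SD, n = 3 each), 0.27 ± 0.05 (SE, adjusted p = 5.3e-04).

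Among the mitochondrial genes limma called 0 higher (0 also at an unadjusted p under 0.05) and 4 lower in SOX17+ than in T+ cells, mt-Nd1, mt-Nd2, mt-Co2 and mt-Co3, with log2 fold changes between -0.19 and -0.12. The call of mt-Co2 was lost without SOX17+ replicate 1 or 2 or T+ replicate 2 or 3 (adjusted p = 0.11, 0.055, 0.053 and 0.12), and that of mt-Nd2 without T+ replicate 1 (adjusted p = 0.050, just above the threshold). None of the 4 held under all 4 scalings: median-of-ratios scaling left 1 lower, mt-Co3, and quantile normalization 2, mt-Nd1 and mt-Co2.

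SOX17+ cells had 19 higher and 11 lower of the 80 nuclear genes against SOX17+/T+ cells as deposited, where 36.6% of all tested genes were called, 19.8% higher and 16.8% lower. After quantile normalization the balance turned, with 6 higher and 23 lower, and 6 higher and 10 lower held under all 4 scalings. No all-gene share under that scaling is set beside these counts, so the turn cannot be read as particular to the subunit genes. Cox5b, a zinc-binding subunit of complex IV, was measured at 256, 247 and 255 TPM in SOX17+ and 206, 203 and 233 TPM in SOX17+/T+ libraries, a log2 fold change of 0.24 ± 0.05 (SE, adjusted p = 0.0012). Atp5g1 was also higher in SOX17+ cells, at 0.33 ± 0.06 (SE, adjusted p = 4.7e-04), as was the complex I accessory gene Ndufb3, at 0.21 ± 0.04 (SE, adjusted p = 0.0022). Genes lower in SOX17+ than in SOX17+/T+ cells were led by Ndufa4l2 at -1.25 ± 0.23 (SE, adjusted p = 0.0018), Cox6b2 at -0.51 ± 0.05 (SE, adjusted p = 3.3e-06) and Atp5l at -0.25 ± 0.03 (SE, adjusted p = 7.1e-05). Of the mitochondrial genes limma called 0 higher (0 also at an unadjusted p under 0.05) and 3 lower, mt-Nd5 at -0.29 ± 0.06 (SE, adjusted p = 0.0042), mt-Nd2 at -0.22 ± 0.04 (SE, adjusted p = 7.5e-04) and mt-Nd1 at -0.12 ± 0.03 (SE, adjusted p = 0.011). Without SOX17+ replicate 2, SOX17+/T+ replicate 1 or mESC replicate 3, 5 mitochondrial genes were lower, and mt-Nd1 lost its call without SOX17+ replicate 3 (adjusted p = 0.051).

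SOX17+/T+ cells lay closest to T+ cells by the count of calls, as they did over all tested genes. Of all tested genes 28.4% were called here, 12.6% higher and 15.8% lower, against 36.6% called for SOX17+ against SOX17+/T+ cells. Of the 80 nuclear genes 3 were higher (3.8%) and 17 lower (21.2%). In these groups the libraries with the same replicate number deviated together, and with the replicate number as a block 5 were higher and 23 lower. The higher genes were Cox7a1 at 0.88 ± 0.09 (SE, adjusted p = 8.7e-06), Ndufs6 at 0.12 ± 0.03 (SE, adjusted p = 0.0074) and Cox7c at 0.08 ± 0.03 (SE, adjusted p = 0.023). The lower genes were led by Ndufv1 at -0.37 ± 0.04 (SE, adjusted p = 2.9e-05), Cox6b2 at -0.29 ± 0.05 (SE, adjusted p = 5.2e-04), Ndufa5 at -0.23 ± 0.07 (SE, adjusted p = 0.025) and Atp5l at -0.20 ± 0.03 (SE, adjusted p = 6.3e-04). Without SOX17+/T+ replicate 1 the count of lower genes was 9, and after median-of-ratios scaling 5 genes were higher and 6 lower. Among the mitochondrial genes mt-Nd3 was higher, at 0.10 ± 0.03 (SE, adjusted p = 0.041), which no longer passed in 7 of the 12 fits that left out 1 library or under quantile normalization (0 genes called). With the block 4 were higher: mt-Nd3, mt-Nd5, mt-Nd6 and mt-Cytb, at adjusted p = 0.024, 0.0091, 0.044 and 0.044. mt-Nd5 had 1899.5, 1908 and 2167 TPM in SOX17+/T+ and 1821, 1729 and 1859.5 TPM in T+ libraries, which did not overlap.

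Respiratory genes that the name rule leaves out were described from lists of their own. Of 9 further subunits, carriers and regulators, 8 were in the table, and 2 rose and 5 fell in SOX17+, 2 and 5 in SOX17+/T+, and 2 and 4 in T+ cells against mESC as deposited, and 4 rose and 3 fell in SOX17+, 4 and 2 in SOX17+/T+, and 5 and 2 in T+ cells after quantile normalization. Cox4i2, an isoform of complex IV subunit 4 known to respond to low oxygen in other mammalian cells, averaged 27.7 ± 1.90 TPM in SOX17+, 51.8 ± 6.87 TPM in SOX17+/T+ and 68.7 ± 6.93 TPM in T+ cells, against 0.970 ± 0.240 TPM in mESC (SD, n = 3 each). Cox4i2 had log2 fold changes against mESC of 3.87 ± 0.11 in SOX17+, 4.74 ± 0.11 in SOX17+/T+ and 5.15 ± 0.11 in T+ cells (SE). For Cox4i2, adjusted p-values were 1.7e-12 in SOX17+, 2.7e-13 in SOX17+/T+ and 1.2e-13 in T+ cells. Its paralogue Cox4i1 averaged 654 ± 22.2 TPM in SOX17+, 655 ± 8.51 TPM in SOX17+/T+ and 679.8 ± 12.2 TPM in T+ cells, against 724 ± 4.70 TPM in mESC (SD, n = 3 each). The genes for cytochrome c and cytochrome c1, Cycs and Cyc1, fell together. Cycs averaged 41.5 ± 1.42 TPM in SOX17+, 41.2 ± 2.36 TPM in SOX17+/T+ and 40.6 ± 1.697 TPM in T+ cells, against 82.6 ± 5.79 TPM in mESC, and Cyc1 averaged 144 ± 7.30 TPM in SOX17+, 133 ± 2.19 TPM in SOX17+/T+ and 131 ± 4.06 TPM in T+ cells, against 250.1 ± 0.438 TPM in mESC (SD, n = 3 each). Ndufab1, the acyl carrier subunit of complex I, fell with log2 fold changes of -0.21 ± 0.03 in SOX17+, -0.22 ± 0.03 in SOX17+/T+ and -0.22 ± 0.03 in T+ cells (SE) as deposited, and was at 0.08 in SOX17+, 0.11 in SOX17+/T+ and 0.10 in T+ cells after quantile normalization.

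Genes that build the complexes and express mitochondrial DNA are to be read against all tested genes, of which 35.4% were called higher and 50.0% lower in SOX17+, 34.9% and 50.3% in SOX17+/T+, and 34.5% and 49.5% in T+ cells as deposited. Of 15 complex I assembly factors, 3 rose and 10 fell in SOX17+, 4 and 9 in SOX17+/T+, and 5 and 8 in T+ cells, and after quantile normalization 4 rose and 9 fell in SOX17+, 5 and 5 in SOX17+/T+, and 5 and 5 in T+ cells. Ecsit, one of them, fell with log2 fold changes of -1.27 ± 0.05 in SOX17+, -1.34 ± 0.05 in SOX17+/T+ and -1.31 ± 0.05 in T+ cells (SE). Of 4 complex II factors limma called 0 higher in each population as deposited (0 also at an unadjusted p under 0.05) and 2 lower, and after quantile normalization 1 rose and 2 fell in SOX17+, 1 and 2 in SOX17+/T+, and 2 and 2 in T+ cells. Of 6 complex III factors 1 rose and 4 fell in SOX17+, 2 and 4 in SOX17+/T+, and 2 and 4 in T+ cells, and after quantile normalization 2 rose and 1 fell in SOX17+, 2 and 1 in SOX17+/T+, and 2 and 1 in T+ cells. Of 19 tested complex IV factors 6 rose and 10 fell in SOX17+, 5 and 10 in SOX17+/T+, and 3 and 11 in T+ cells, and after quantile normalization 8 rose and 8 fell in SOX17+, 6 and 10 in SOX17+/T+, and 7 and 10 in T+ cells. The copper-delivery factor gene Cox11 averaged 10.5 ± 0.575 TPM in SOX17+, 10.9 ± 0.919 TPM in SOX17+/T+ and 11.8 ± 0.933 TPM in T+ cells, against 27.9 ± 1.57 TPM in mESC (SD, n = 3 each). Of 3 complex V factors 1 rose and 2 fell in SOX17+, 0 and 2 in SOX17+/T+, and 1 and 2 in T+ cells as deposited. After quantile normalization 1 rose and 1 fell in SOX17+, 1 and 2 in SOX17+/T+, and 1 and 2 in T+ cells. Of 30 genes for copying, transcribing and processing mitochondrial DNA and RNA, 5 rose and 23 fell in SOX17+, 4 and 23 in SOX17+/T+, and 4 and 23 in T+ cells as deposited, and 6 rose and 16 fell in SOX17+, 6 and 17 in SOX17+/T+, and 6 and 12 in T+ cells after quantile normalization. The median log2 fold change of the 30 was -0.47 in SOX17+, -0.46 in SOX17+/T+ and -0.35 in T+ cells as deposited, beside -0.18, -0.19 and -0.17 for all genes. Polrmt, the mitochondrial RNA polymerase, fell with log2 fold changes of -1.16 ± 0.10 in SOX17+, -1.05 ± 0.10 in SOX17+/T+ and -0.90 ± 0.10 in T+ cells, and its partner Tfb2m with log2 fold changes of -1.07 ± 0.06 in SOX17+, -1.12 ± 0.06 in SOX17+/T+ and -1.18 ± 0.06 in T+ cells (SE). Tfam, which packs mitochondrial DNA, fell with log2 fold changes of -0.47 ± 0.06 in SOX17+, -0.44 ± 0.06 in SOX17+/T+ and -0.25 ± 0.06 in T+ cells, and Lrpprc, which stabilizes mitochondrial mRNAs, with log2 fold changes of -0.34 ± 0.05 in SOX17+, -0.34 ± 0.05 in SOX17+/T+ and -0.25 ± 0.05 in T+ cells (SE). Under quantile normalization Tfam was at 0.03 in T+ cells, and Lrpprc was at -0.05 in SOX17+, 0.0010 in SOX17+/T+ and 0.08 in T+ cells, none of them called. Polg, the mitochondrial DNA polymerase, was among those that rose, averaging 145 ± 1.23 TPM in SOX17+, 96.1 ± 5.58 TPM in SOX17+/T+ and 63.1 ± 4.53 TPM in T+ cells, against 27.7 ± 0.733 TPM in mESC (SD, n = 3 each), with log2 fold changes of 2.35 ± 0.05 in SOX17+, 1.76 ± 0.05 in SOX17+/T+ and 1.16 ± 0.05 in T+ cells (SE, adjusted p = 1.3e-13, 2.2e-12 and 1.4e-10). Of 78 mitochondrial ribosomal protein genes, 5 rose and 66 fell in SOX17+, 4 and 66 in SOX17+/T+, and 5 and 65 in T+ cells as deposited, with medians of -0.60, -0.61 and -0.58, and 12 rose and 54 fell in SOX17+, 16 and 53 in SOX17+/T+, and 13 and 50 in T+ cells after quantile normalization.

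Of 11 tested transcriptional regulators of respiration genes, 3 rose and 7 fell in SOX17+, 2 and 7 in SOX17+/T+, and 3 and 8 in T+ cells as deposited, beside 35.4% of all tested genes higher and 50.0% lower in SOX17+, 34.9% and 50.3% in SOX17+/T+, and 34.5% and 49.5% in T+ cells, and 4 rose and 7 fell in SOX17+, 3 and 6 in SOX17+/T+, and 3 and 7 in T+ cells after quantile normalization. Nrf1, whose binding word is marked in the promoters, averaged 29.2 ± 1.80 TPM in SOX17+, 30.7 ± 1.59 TPM in SOX17+/T+ and 32.6 ± 0.453 TPM in T+ cells, against 44.0 ± 3.15 TPM in mESC (SD, n = 3 each). Gabpa, an ETS factor, fell with log2 fold changes of -1.51 ± 0.08 in SOX17+, -1.41 ± 0.08 in SOX17+/T+ and -1.40 ± 0.08 in T+ cells (SE). Esrrb, an oestrogen-related receptor of naive pluripotent cells, averaged 0.726 ± 0.289 TPM in SOX17+, 1.10 ± 0.169 TPM in SOX17+/T+ and 0.629 ± 0.0706 TPM in T+ cells, against 319.8 ± 16.8 TPM in mESC (SD, n = 3 each), whereas its relative Esrra had log2 fold changes of 0.23 ± 0.07 in SOX17+, -0.07 ± 0.07 in SOX17+/T+ and -0.31 ± 0.07 in T+ cells (SE, adjusted p = 0.0085, 0.37 and 0.0015). Ppargc1a averaged under 1 TPM in every group. Of 16 genes of pyruvate dehydrogenase and the citric acid cycle, 5 rose and 8 fell in SOX17+, 7 and 8 in SOX17+/T+, and 7 and 8 in T+ cells as deposited, and 9 rose and 4 fell in SOX17+, 10 and 3 in SOX17+/T+, and 13 and 3 in T+ cells after quantile normalization. Idh3a, a subunit of isocitrate dehydrogenase, fell with log2 fold changes of -0.94 ± 0.04 in SOX17+, -0.98 ± 0.04 in SOX17+/T+ and -0.94 ± 0.04 in T+ cells, and Pdha1, of pyruvate dehydrogenase, rose with log2 fold changes of 0.63 ± 0.03 in SOX17+, 0.37 ± 0.03 in SOX17+/T+ and 0.21 ± 0.03 in T+ cells (SE). Of 12 tested genes that respond to low oxygen, limma called 8 higher and 0 lower in SOX17+ and in SOX17+/T+ cells (0 also at an unadjusted p under 0.05), and 7 higher and 2 lower in T+ cells as deposited, and 9 rose and 0 fell in SOX17+, 10 and 0 in SOX17+/T+, and 8 and 1 in T+ cells after quantile normalization. Ldha averaged 4740.4 ± 286 TPM in SOX17+, 5121 ± 328 TPM in SOX17+/T+ and 4489 ± 319 TPM in T+ cells, against 1467 ± 21.6 TPM in mESC (SD, n = 3 each), and Slc2a1, a glucose transporter gene, rose with log2 fold changes of 2.61 ± 0.12 in SOX17+, 1.97 ± 0.12 in SOX17+/T+ and 1.03 ± 0.12 in T+ cells (SE).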

How the data were processed

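Poly(A) RNA of 12 libraries was sequenced from 500 ng of total RNA with a stranded kit as 100-base paired reads, per the labels' protocols. The deposited values are TPM that the authors computed, with cutadapt, STAR and StringTie on mm10/GRCm38, per the submitters' processing notes, which name no versions and no order. Counts were not used, so the depth of each library is unknown and no counting interval can be given.

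Rows of the same gene identifier were summed, which took the 54480 rows to 54446 genes, and 282 empty cells were set to 0. Some genes stood at 0 in a library although another library of the same group had at least 5 TPM (11 genes in SOX17+, 13 in SOX17+/T+, 14 in T+ and 10 in mESC). Differences were tested with limma 3.58.1 (R 4.3.3, lmFit and eBayes with trend and robust settings) on log2(TPM + 1), with all 12 libraries in 4 groups and 8 residual degrees of freedom. Genes with at least 1 TPM in at least 3 libraries were tested (16097), with 2-sided p-values and Benjamini-Hochberg adjustment across the 16097. Calls needed an adjusted p below 0.05. Fold changes on this scale understate the change of low genes. Of the 100 subunit genes, 93 passed the filter. Sums, ratios and shares over chosen genes carry no test.

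Near-identical copies were found with blastn 2.17.0 against the GENCODE M21 transcripts. Tables were handled with Python 3.11.15 and pandas 2.3.3. The members and gene lists were chosen with earlier results of these data known. Named were the 13 mitochondrial genes, the 3 most abundant nuclear genes of each complex, the 5 largest rises and falls among called nuclear genes of at least 10 TPM in the higher group of each comparison, isoform groups, complex II, genes under 1 TPM, and up to 5 genes of each list with the largest change plus fixed names. Ndufs1, Ndufb10, Ndufb4, Ndufb4c, Ndufs5, Ndufa12, Uqcrc1, Uqcrc2, Atp5c1 and Ndufa10 fall outside this rule and were named after their values were seen.

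Replicate numbers paired the libraries in 1 comparison, SOX17+/T+ against T+, where same-numbered libraries deviated together (correlations of 0.149 to 0.242, other pairs at most 0.00820). This pairing comes from the data, since the labels do not say what a number marks. Alternatives were another pseudocount (0.1), no filter or a filter at 5 TPM, median-of-ratios scaling, quantile normalization, scaling to genes outside mitochondrial DNA, only the groups compared, the replicate number as a block, and each library left out. Leaving out the 4 annotated pseudogenes, adding copies to their genes and rescaling the sums, ratios and shares were chosen after seeing the data.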

Additional observations from a re-analysis of the deposited data

Results flagged for a closer look

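For 3 nuclear genes the effect against mESC was called in opposite directions in a pair of sorted populations, and the direct difference between those populations passed the limma test. Atp5g3, an ATP synthase subunit c gene, was measured at 665, 681 and 681 TPM in SOX17+, 611, 622 and 635 TPM in SOX17+/T+ and 625, 641 and 628 TPM in T+ libraries. In mESC libraries Atp5g3 had 642, 644 and 654 TPM. It was higher in SOX17+ and lower in SOX17+/T+ cells than in mESC, and SOX17+ over SOX17+/T+ differed by 0.12 ± 0.02 (SE, adjusted p = 9.3e-04) on the log2 scale. The call against mESC in SOX17+ cells was lost without SOX17+ replicate 3 (adjusted p = 0.053), and the value in SOX17+/T+ cells became 0.12 under both median-of-ratios scaling and quantile normalization.

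Ndufa10, an accessory subunit of complex I, was measured at 92.8, 97.4 and 96.5 TPM in SOX17+, 102, 104 and 103 TPM in SOX17+/T+ and 108, 109.9 and 110.5 TPM in T+ libraries. In mESC libraries Ndufa10 had 106, 105 and 101 TPM. It was lower in SOX17+ (-0.12 ± 0.03 (SE, adjusted p = 0.0025)) and higher in T+ cells (0.07 ± 0.03 (SE, adjusted p = 0.05, just under the threshold before rounding)) than in mESC, and SOX17+ over T+ was -0.20 ± 0.03 (SE, adjusted p = 1.6e-04). The value of Ndufa10 in SOX17+ cells against mESC became 0.04 under median-of-ratios scaling and 0.15 under quantile normalization. Ndufa3, another accessory subunit, was measured at 108, 105 and 106 TPM in SOX17+, 87.9, 96.5 and 92.3 TPM in SOX17+/T+ and 85.5, 89.6 and 90.3 TPM in T+ libraries. In mESC libraries Ndufa3 had 91.6, 105 and 94.6 TPM. It was higher in SOX17+ (0.14 ± 0.05 (SE, adjusted p = 0.021)) and lower in T+ cells (-0.13 ± 0.05 (SE, adjusted p = 0.027)) than in mESC, and SOX17+ over T+ was 0.27 ± 0.05 (SE, adjusted p = 5.3e-04). The value of Ndufa3 in T+ cells against mESC became 0.02 under median-of-ratios scaling and 0.20 under quantile normalization. All 3 effects against mESC share the mESC libraries.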

How the results depend on the processing

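Without the 5 most abundant mitochondrial genes the log2 ratio of mitochondrial to nuclear TPM was 0.12 in SOX17+, 0.27 in SOX17+/T+ and 0.18 in T+ cells, against -0.36 in mESC. For SOX17+ against mESC, nuclear genes called higher numbered 37 under median-of-ratios scaling and 44 under quantile normalization and 25 were lower under the second, with 6 mitochondrial genes higher and 2 lower. For SOX17+/T+ against mESC these were 34, 45 and 24, with 2 mitochondrial genes lower, and for T+ against mESC 35, 50, 27 lower under median-of-ratios scaling and 20 under quantile normalization, with 7 mitochondrial genes higher and 2 lower. For SOX17+ against T+, quantile normalization gave 8 nuclear genes higher, 39 lower and 2 mitochondrial genes lower, and median-of-ratios scaling 15 and 1 lower. For SOX17+ against SOX17+/T+, quantile normalization gave 6 higher and 23 lower. For SOX17+/T+ against T+, median-of-ratios scaling gave 5 higher and 6 lower, and 0 mitochondrial genes were higher under quantile normalization or with no filter. The cause was not tested.

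The replicate block gave 1 mitochondrial gene higher and 7 lower for SOX17+ against T+, 9 lower for SOX17+ against SOX17+/T+, and, for SOX17+/T+ against T+, 5 nuclear and 4 mitochondrial genes higher; where the numbers do not pair libraries it is only a number. It changed no other count by over 1.5 times.

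Called in opposite directions by a pair of scalings against mESC were 6 nuclear genes in SOX17+, 12 in SOX17+/T+ and 11 in T+ cells, and 1 mitochondrial gene in each. Among the named genes, those whose direction turned, under median-of-ratios scaling then quantile normalization, were, in SOX17+ cells against mESC, Uqcr11 (0.15, 0.27), Sdha (0.035, 0.14) and Sdhc (0.13, 0.26). Under the first alone Cox8a was 0.12. Under the second alone Cox7b was 0.052, mt-Nd1 -0.30, mt-Atp8 -0.024 and mt-Nd5 -0.065. In SOX17+/T+ cells they were Atp5g3 (0.12, 0.12), Uqcr11 (0.072, 0.27), Sdha (0.0062, 0.21), Cox7a2 (0.054, 0.26) and Cox8a (0.16, 0.17), and under the second alone Sdhb 0.024, Ndufb8 0.21, Cox7b 0.0018, mt-Nd1 -0.21, mt-Atp8 -0.028 and mt-Cytb -0.10. In T+ cells they were Atp5g3 (0.11, 0.16), Sdha (0.093, 0.32), Cox7a2 (0.12, 0.35) and Cox8a (0.12, 0.17), and under the second alone Sdhb 0.14, Uqcr11 0.20, Cox7b 0.016, mt-Nd1 -0.17 and mt-Cytb -0.13. For SOX17+ against SOX17+/T+, Uqcr11 was -0.0011 under quantile normalization.

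With each library left out, nuclear genes called higher and lower ranged over 20 to 23 and 38 to 42 for SOX17+ against mESC, 16 to 18 and 43 to 47 for SOX17+/T+ against mESC, 19 to 24 and 40 to 42 for T+ against mESC, 11 to 17 and 19 to 24 for SOX17+ against T+, 13 to 19 and 8 to 12 for SOX17+ against SOX17+/T+, and 2 to 4 and 9 to 19 for SOX17+/T+ against T+, lowest without SOX17+/T+ replicate 1. Mitochondrial genes lower in SOX17+ than in SOX17+/T+ cells ranged over 2 to 5, and those higher in SOX17+/T+ than in T+ cells over 0 to 1. Of values for single genes, 5326 kept direction and side of the threshold, 72 gained a call, 147 lost one and 41 turned.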

Other observations

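Other RNAs of mitochondrial DNA, outside the subunit genes, were also listed. The mitochondrial ribosomal RNAs summed to 1682, 1963 and 1774 TPM in SOX17+, 2693, 3191 and 3003 TPM in SOX17+/T+ and 2458, 3243 and 3064 TPM in T+ libraries, against 1201, 1293 and 1462 TPM in mESC libraries. The SOX17+ libraries lay between the mESC libraries and the other sorted groups. Mitochondrial tRNA genes summed to 2014, 2135 and 2033 TPM in SOX17+, 2247, 2281 and 2382 TPM in SOX17+/T+ and 2156, 2087 and 2242 TPM in T+ libraries, against 1083, 1139 and 1270.2 TPM in mESC libraries, and here every sorted library lay above every mESC library. The libraries were selected for poly(A). Neither sum was tested.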
